A study of Apis cerana with 9 samples.

Results

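Smoothened, cubitus interruptus and fused are 3 genes of Hedgehog signaling. They were taken from the deposited gene table by their identifiers, which made 3 genes of the 12757 listed. RNA-seq counts are given there for 9 libraries made from the proboscis, the tube-like mouthpart with which a bee takes up nectar, of the Asian honey bee *Apis cerana*. The groups, with 3 libraries each, were bees carrying pear pollen (pear, libraries LH), bees carrying rapeseed pollen (rapeseed, libraries YH) and bees carrying no pollen (non-pollen, libraries CH). The labels give no genotype, age, colony or collection day, and all libraries were poly(A)-selected from total RNA of the same tissue. Nothing in the labels says whether replicate libraries stand for separate bees, pools or colonies, so the p-values here measure the spread between libraries, which may be technical.

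In *Drosophila*, where the pathway was worked out, the secreted ligand Hedgehog binds the receptor Patched, which otherwise holds back the membrane protein Smoothened. Released Smoothened acts through a complex of the kinesin-like protein Costal 2 and the kinase Fused on the zinc finger transcription factor Cubitus interruptus. Without the signal that factor is phosphorylated and trimmed into a repressor, and Suppressor of fused restrains its full-length form. The pathway is best known for patterning segments and appendages in the embryo and the imaginal discs. Its roles in the adult bee proboscis are not described by the files.

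Smoothened is LOC107998235, described as Protein smoothened. It spans 4419 bp of scaffold NW_016019219.1, between positions 1547733 and 1552151 on the minus strand, with 1 transcript. Cubitus interruptus is LOC108000095, described as transcriptional activator cubitus interruptus-like, on the plus strand of scaffold NW_016019408.1 from 482523 to 658601. Its span of 176079 bp with 2 transcripts is the longest of the 3. The kinase gene fused is LOC108002652 (serine/threonine-protein kinase fused), on the minus strand of scaffold NW_016019763.1 from 198988 to 202369, a span of 3382 bp with 3 transcripts. The genome build is not given in the sources used here, and the table lists no exons or untranslated regions.

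The genes differed in how far their reads could be shared with neighbours. No listed gene overlapped smoothened or cubitus interruptus, and the nearest neighbours of smoothened lay 1188 bp and 413 bp away. Fused lies wholly inside the span of LOC108002654 (cytochrome P450 306a1) on the same strand. Over 226 bp it also overlaps LOC108002655 (zinc metalloproteinase nas-13) on the opposite strand. The overlapping P450 gene had 221, 285 and 278 counts in the pear libraries, 330, 307 and 275 in the rapeseed libraries, and 185, 293 and 304 in the non-pollen libraries. These counts were below those of fused in every library. In edgeR's test after TMM scaling, LOC108002654 had log2 fold changes of -0.22 in pear against non-pollen (adjusted p = 0.257) and -0.12 in rapeseed against non-pollen (adjusted p = 0.534). LOC108002655 had between 7 and 25 counts in every library and was not tested. How reads in the shared span were assigned is not given in the sources used here, so the values of fused carry that limit.

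Per length, smoothened was the highest of the 3 genes and cubitus interruptus the lowest in every group. FPKM is a fragment count scaled by gene length and library size. The authors' FPKM of smoothened averaged 12.1 ± 0.946 (SD, n = 3) in the pear libraries, 12.1 ± 0.549 in the rapeseed libraries and 8.71 ± 0.384 in the non-pollen libraries. Fused averaged 8.80 ± 0.874 FPKM in the pear libraries, 8.94 ± 0.172 in the rapeseed libraries and 4.66 ± 0.721 in the non-pollen libraries. Cubitus interruptus averaged 1.39 ± 0.131 FPKM in the pear libraries, 1.35 ± 0.0712 in the rapeseed libraries and 0.546 ± 0.0959 in the non-pollen libraries. The order smoothened, fused, cubitus interruptus held in each of the 9 libraries, since no library had a ratio of fused to smoothened or of cubitus interruptus to fused above 1.

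Among the 9259 genes tested, ranked by mean FPKM, smoothened stood near the middle. In pear, 48.6% of genes lay below it, in rapeseed 49.9% and in non-pollen 48.8%. Fused had 39.9% of genes below it in pear, 41.3% in rapeseed and 31.7% in non-pollen. Cubitus interruptus was among the lowest of these tested genes, with 6.54% below it in pear, 6.78% in rapeseed and 1.16% in non-pollen. Genes were tested where FPKM reached 1 in at least 3 of the 9 libraries. Cubitus interruptus was below 1 FPKM in all 3 non-pollen libraries and passed only through the groups where it was higher. Its low rank, most of all in non-pollen, was thus partly set by the filter. The rank does not place cubitus interruptus among all listed genes. Without that filter, the log2 fold change of cubitus interruptus was 0.82 in pear (adjusted p = 3.38e-05) and 0.82 in rapeseed (adjusted p = 2.69e-05).

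Levels between libraries depend on the scaling here. Total counts ran from 45447582 to 46167296 in pear, 49085060 to 53518340 in rapeseed and 43034759 to 64306245 in non-pollen. Major royal jelly protein genes, whose products are the main proteins of the food made in the head glands of workers, took 0.484 to 0.740% of counts in pear and 0.264 to 0.301% in rapeseed, against 32.1 to 32.4% in non-pollen. Gland enzyme genes took 0.417 to 0.467% in pear and 0.525 to 0.536% in rapeseed, against 4.92 to 5.20% in non-pollen. Sarcomere genes took 8.01 to 8.26% in pear and 7.77 to 7.81% in rapeseed, against 3.77 to 3.85% in non-pollen. Taste receptor and cuticle genes of the mouthpart took 0.504 to 0.537% in pear and 0.535 to 0.538% in rapeseed, against 0.248 to 0.262% in non-pollen. Photoreceptor genes took at most 0.00530% in pear and 0.00482% in rapeseed, against 0.0773 to 0.0836% in non-pollen. Synapse genes took 0.116 to 0.121% in pear and 0.114 to 0.115% in rapeseed, against 0.0882 to 0.0890% in non-pollen. Nearly all genes of these lists had counts in each group, with at least 12 of 13 royal jelly protein genes, 25 of 26 gland enzyme genes, 24 of 25 sarcomere genes, 32 of 35 taste and cuticle genes, 11 of 12 photoreceptor genes and 22 of 22 synapse genes. The part of tissue makeup in the changes of the 3 genes was not tested, and in bulk libraries fewer cells of a type and less RNA per cell cannot be told apart.

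The scaling choices treat this differently. TMM scaling, in edgeR, sets the bulk of genes equal between libraries, and its factors lay between 1.11 and 1.17 in the pollen carriers and between 0.773 and 0.800 in non-pollen. Scaling by library totals alone instead counts the gland transcripts as part of the library, and moved the median log2 fold change of all genes to 0.53 in pear and 0.47 in rapeseed. After TMM scaling these medians were -0.0050 and -0.020. CPM below means counts scaled by library size with the scaling named.

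Smoothened, the membrane protein that passes the signal into the cell, had 1788, 1993 and 2123 counts in pear, 2383, 2145 and 2087 in rapeseed, and 1279, 2024 and 1992 in non-pollen. After TMM scaling these were 33.7, 37.9 and 41.1 CPM in pear, 40.1, 39.5 and 36.8 CPM in rapeseed, and 38.4, 39.4 and 40.7 CPM in non-pollen. The 3 groups overlapped, and both the lowest and the highest library were pear libraries. In edgeR's quasi-likelihood test with Benjamini-Hochberg adjustment over all genes tested, the log2 fold change was -0.072 in pear against non-pollen (SE 0.0699, adjusted p = 0.397) and -0.027 in rapeseed against non-pollen (SE 0.0697, adjusted p = 0.757). Among all genes tested, 42.2% had a lower fold change in pear and 49.2% in rapeseed.

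By library totals alone the same counts separated the groups. Smoothened then had 39.3, 43.4 and 46.0 CPM in pear, 44.5, 43.7 and 40.8 CPM in rapeseed, and 29.7, 31.5 and 32.3 CPM in non-pollen. All 6 pollen-carrier libraries lay above all 3 non-pollen libraries on this scale. The log2 fold change was 0.46 in pear (adjusted p = 5.29e-06) and 0.46 in rapeseed (adjusted p = 4.99e-06). Relative to the median of all genes under that scaling, these were -0.069 in pear and -0.0069 in rapeseed. Leaving the royal jelly protein and gland enzyme genes out of the totals, an alternative chosen after seeing the data, turned the log2 fold change to -0.20 in pear (adjusted p = 0.0196) and -0.20 in rapeseed (adjusted p = 0.0169), with a median of all genes at -0.13 and -0.19. The direction called for smoothened thus differed between 2 scalings by totals, and TMM scaling gave no call.

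Cubitus interruptus, the transcription factor at the end of the pathway, had higher levels in both pollen-carrying groups. It had 590, 553 and 497 counts in pear, 652, 574 and 561 in rapeseed, and 232, 244 and 310 in non-pollen. After TMM scaling these were 11.1, 10.5 and 9.63 CPM in pear, 10.96, 10.6 and 9.89 CPM in rapeseed, and 6.97, 4.74 and 6.33 CPM in non-pollen. Every pollen-carrier library lay above every non-pollen library, and the pear and rapeseed libraries overlapped. The log2 fold change was 0.80 in pear (SE 0.138, adjusted p = 4.72e-05), a fold of 1.74, and 0.81 in rapeseed (SE 0.138, adjusted p = 3.80e-05), a fold of 1.75. Of all genes tested, 96.9% had a lower fold change in pear and 95.9% in rapeseed. This share depended on the setting. With 1 added to FPKM it was 69.4% in pear and 70.6% in rapeseed, the lowest of the alternatives run. With quantile normalization it was 89.9% and 88.9%.

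Fused, a kinase that in *Drosophila* is needed for full activation of Cubitus interruptus, was also higher in both pollen-carrying groups. After TMM scaling its change was smaller than that of cubitus interruptus. With 1 added to FPKM the order turned. Fused then had log2 fold changes of 0.80 in pear and 0.82 in rapeseed, and cubitus interruptus 0.63 and 0.61. The counts of fused were 1069, 1140 and 941 in pear, 1244, 1123 and 1214 in rapeseed, and 437, 889 and 785 in non-pollen. After TMM scaling these were 20.2, 21.7 and 18.2 CPM in pear, 20.9, 20.7 and 21.4 CPM in rapeseed, and 13.1, 17.3 and 16.0 CPM in non-pollen. The groups of pollen carriers lay above the non-pollen group without overlap, but the lowest pear library was close to the highest non-pollen library. The log2 fold change was 0.37 in pear (SE 0.1004, adjusted p = 0.00408), a fold of 1.29, and 0.43 in rapeseed (SE 0.1001, adjusted p = 0.000886), a fold of 1.35. Of all genes tested, 84.2% had a lower fold change in pear and 85.3% in rapeseed.

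**Figure D1:**
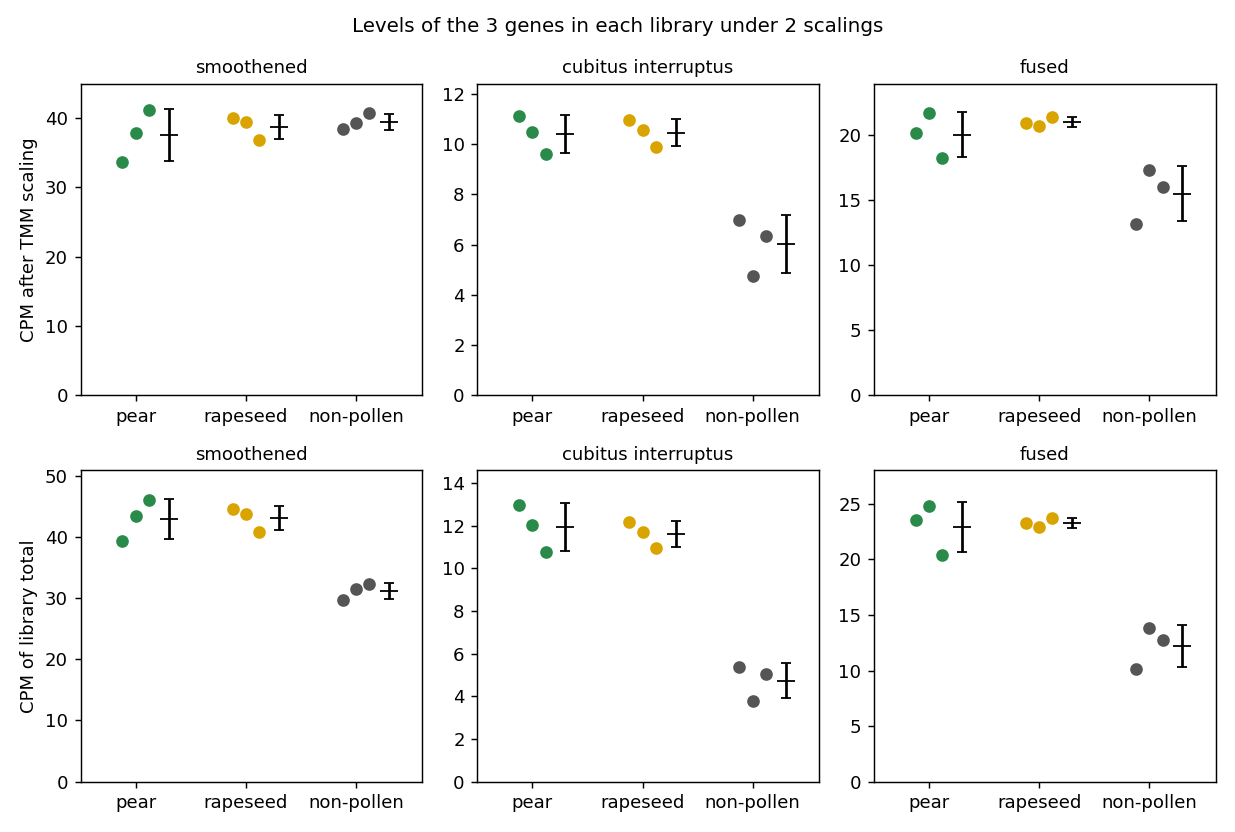
Levels of smoothened, cubitus interruptus and fused in each library, in CPM (y axis) after TMM scaling (top row) and by library totals alone (bottom row). Points are the 3 libraries of each group, bars the mean ± SD. The non-pollen libraries of smoothened lie among the others in the top row (38.4 to 40.7 CPM) and below them in the bottom row (29.7 to 32.3 CPM), while those of cubitus interruptus and fused are below in both.

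Of the 3 genes, 2 were called higher and none lower in each comparison with non-pollen bees. As background, 28.5% of all genes tested were called higher and 27.2% lower in pear, and 29.3% higher and 30.0% lower in rapeseed. Both comparisons share the non-pollen libraries, so their values are not independent of each other. By library totals alone all 3 genes were called higher in both comparisons, against a background of 75.0% of genes higher and 6.70% lower in pear, and 70.0% higher and 7.81% lower in rapeseed. On that scale cubitus interruptus had log2 fold changes of 1.34 in pear and 1.30 in rapeseed, which were 0.81 and 0.83 above the median of all genes. Fused had 0.90 in pear and 0.92 in rapeseed, which were 0.37 and 0.45 above that median. With gland genes left out of the totals, cubitus interruptus stayed at 0.68 in pear (adjusted p = 0.000322) and 0.64 in rapeseed (adjusted p = 0.000485). Fused had 0.24 in pear (adjusted p = 0.0576), where its call was lost, and 0.26 in rapeseed (adjusted p = 0.0362).

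**Figure D2:**
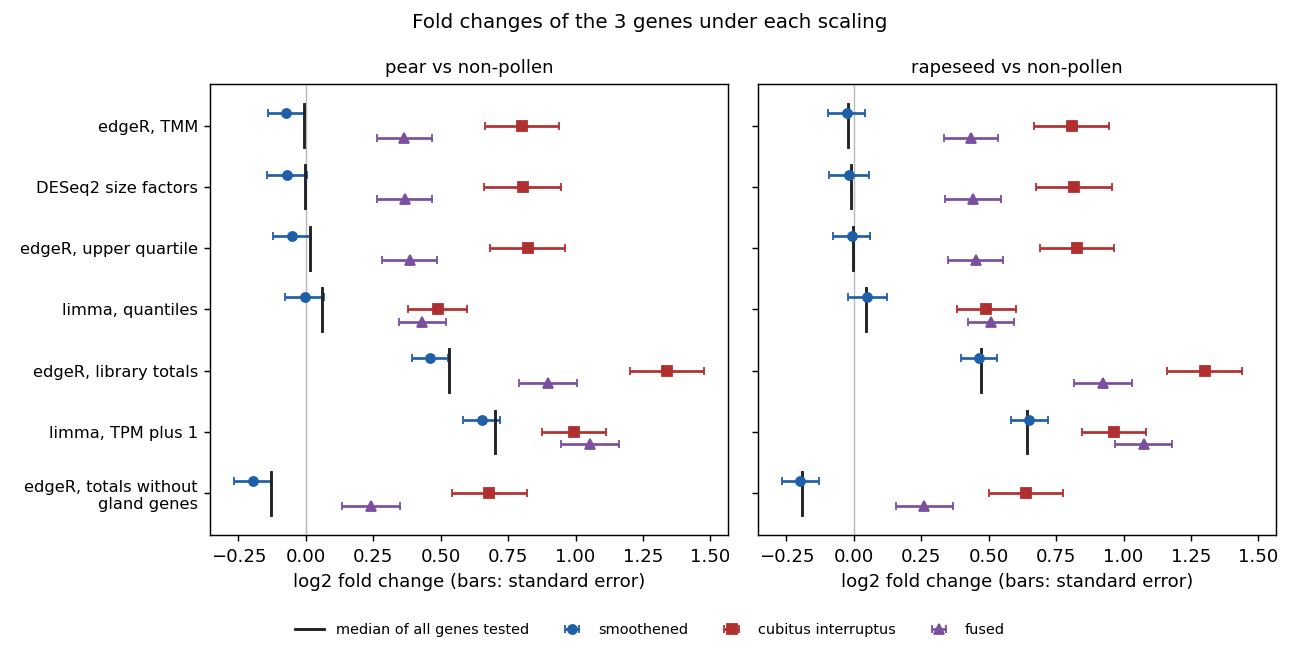
Log2 fold changes (x axis) of smoothened, cubitus interruptus and fused in pear against non-pollen (left) and rapeseed against non-pollen (right) under 7 scalings (y axis), with bars of 1 standard error. The upright line in each row is the median of all genes tested. Smoothened moves with that line, which lies between -0.13 and 0.70 in pear, and cubitus interruptus and fused stay to its right.

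Between the pollen sources the 3 genes showed no difference that the test could separate from the replicate spread. In rapeseed against pear, the log2 fold change of smoothened was 0.045 (SE 0.0694, adjusted p = 0.759). That of cubitus interruptus was 0.0064 (SE 0.133, adjusted p = 0.992), and that of fused 0.068 (SE 0.0985, adjusted p = 0.739). Over all genes, 7.94% were called higher and 4.96% lower in rapeseed than in pear. The unadjusted p-values in edgeR ran from 0.497 to 0.962, and DESeq2 called none of the 3 either. Standard errors of this size leave room for differences that 3 libraries a group could not resolve. The levels were thus not shown to be equal.

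The spread between replicates was wider than counting alone gives in every gene and group except fused in rapeseed. In TMM-scaled CPM, the coefficient of variation of cubitus interruptus was 7.25% in pear, 5.17% in rapeseed and 19.1% in non-pollen, where counting alone would give 4.28%, 4.10% and 6.18%. For fused it was 8.61%, 1.79% and 13.8%, against 3.09%, 2.89% and 3.77% from counting. Smoothened had 9.86%, 4.49% and 2.87%, against 2.25%, 2.13% and 2.38%. Cubitus interruptus and fused varied most in the non-pollen group and smoothened in the pear group. Leaving out 1 library at a time moved the log2 fold change of cubitus interruptus in pear between 0.65 and 0.91 and that of fused between 0.27 and 0.45, and both calls held each time. The lower ends came without the non-pollen library of replicate 2 for cubitus interruptus and of replicate 1 for fused.

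The ratio of 2 genes within a library does not depend on any scaling between libraries. Cubitus interruptus per smoothened, in FPKM, was 0.137, 0.115 and 0.0967 in pear, 0.113, 0.111 and 0.111 in rapeseed, and 0.0748, 0.0498 and 0.0643 in non-pollen. Its 6 pollen-carrier libraries lay above the 3 non-pollen libraries. The mean log2 ratio was 0.87 higher in the pollen carriers (a fold of 1.82), with a two-sided exact permutation p of 0.0238 over 6 against 3 libraries, the smallest this design can give, and 0.0357 after Benjamini-Hochberg adjustment over the 3 ratios.

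Fused per smoothened was 0.815, 0.780 and 0.604 in pear, 0.712, 0.713 and 0.793 in rapeseed, and 0.465, 0.598 and 0.537 in non-pollen. The lowest pollen-carrier library, pear replicate 3, was just above the highest non-pollen library, and the groups did not overlap. The mean log2 ratio was 0.47 higher in the pollen carriers (a fold of 1.38, exact permutation p = 0.0238, adjusted p = 0.0357 over the 3 ratios).

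Cubitus interruptus per fused was 0.168, 0.147 and 0.160 in pear, 0.159, 0.155 and 0.140 in rapeseed, and 0.161, 0.0833 and 0.120 in non-pollen. The non-pollen library of replicate 1 lay among the pollen carriers, so the groups overlapped. The mean log2 ratio was 0.40 higher in the pollen carriers (exact permutation p = 0.143, adjusted p = 0.143 over the 3 ratios), which did not pass the threshold. Without the non-pollen library of replicate 2 this difference was 0.16, and without that of replicate 1 it was 0.63.

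**Figure D3:**
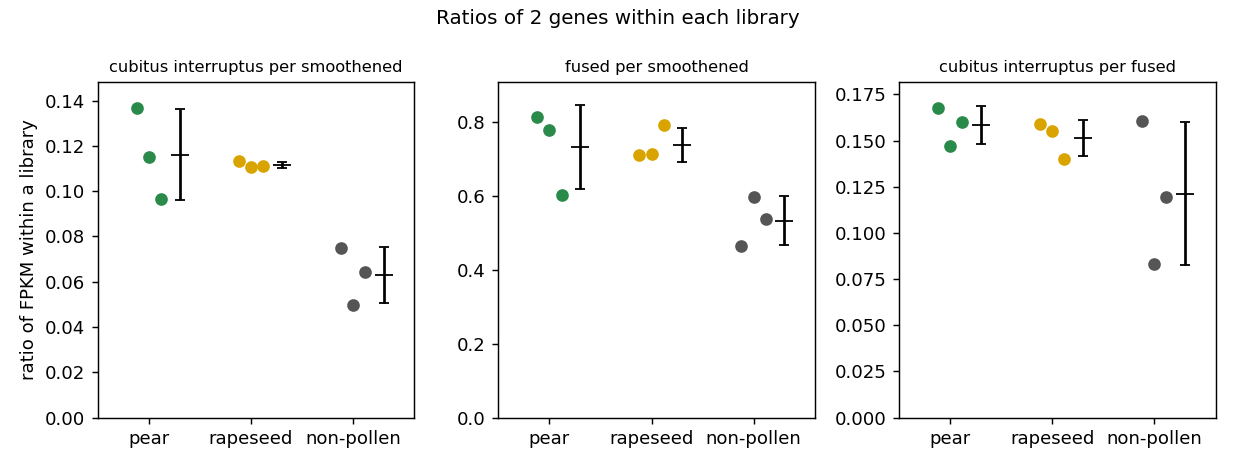
Ratios of the FPKM of 2 genes within each library (y axes) for pear, rapeseed and non-pollen libraries. Points are libraries and bars the mean ± SD. Cubitus interruptus per smoothened and fused per smoothened are higher in all 6 pollen-carrier libraries than in the 3 non-pollen libraries, and cubitus interruptus per fused overlaps.

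The other genes of the pathway were taken from a list of 51 genes matched on their descriptions, the 3 genes included, of which 44 were tested. In pear against non-pollen, 17 of the 44 were called higher and 6 lower, where 28.5% and 27.2% of all genes were, and the median change was 0.11 on the log2 scale against -0.0050 for all genes. In rapeseed against non-pollen, 20 were called higher and 8 lower, where 29.3% and 30.0% of all genes were, and the median was 0.11 against -0.020 for all genes. By library totals alone, 39 were called higher and 1 lower in each comparison. Of all genes, 75.0% were then higher and 6.70% lower in pear, and 70.0% higher and 7.81% lower in rapeseed. The medians were 0.65 and 0.61 against 0.53 and 0.47 for all genes. In rapeseed against pear 2 of the 44 were called higher and none lower, where 7.94% and 4.96% of all genes were. Matching by description brought in genes that are not known parts of the pathway. Among them are patched domain-containing proteins, the kinase PRKX and mothers against decapentaplegic homologs. These homologs belong to the signaling of the Decapentaplegic family.

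Ligand and release genes were few and low. LOC108003950, described as sonic hedgehog protein A, had 26, 28 and 25 counts in pear, 0, 14 and 25 in rapeseed, and 6, 8 and 0 in non-pollen, and was not tested because its FPKM was under 1 in every library. Dispatched (LOC107996642), which in *Drosophila* releases the ligand from the cell that makes it, was lower, with log2 fold changes of -0.54 in pear (adjusted p = 0.0155) and -0.80 in rapeseed (adjusted p = 0.000809) after TMM scaling. By library totals dispatched was at -0.0019 in pear (adjusted p = 0.993) and -0.31 in rapeseed (adjusted p = 0.137), and neither was called. The palmitoyltransferase Rasp (LOC108001139), which adds a lipid to the ligand, had -0.35 (adjusted p = 0.267) in pear and -0.61 (adjusted p = 0.0515) in rapeseed after TMM scaling. By library totals Rasp was at 0.19 (adjusted p = 0.51) and -0.11 (adjusted p = 0.698), so the pear direction turned.

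Of the receptor and co-receptor genes, 6 were tested. The receptor patched (LOC108001413), itself a target of the pathway in *Drosophila*, had 609, 473 and 535 counts in pear, 579, 649 and 564 in rapeseed, and 355, 445 and 504 in non-pollen. After TMM scaling its log2 fold change was 0.062 in pear (adjusted p = 0.70) and 0.097 in rapeseed (adjusted p = 0.531), and neither passed edgeR's test. By library totals that test called patched higher, at 0.60 in pear (adjusted p = 0.000347) and 0.59 in rapeseed (adjusted p = 0.000414). The median of all genes was then 0.53 and 0.47. The other tested genes of this role were also called higher by library totals. After TMM scaling the ligand co-receptors interference hedgehog-like (LOC107995960) and Interference hedgehog (LOC114577275) had 0.011 and 0.14 in pear, and 0.0091 and 0.12 in rapeseed. None of these was called. The glypican division abnormally delayed (LOC108003317), a cell surface carrier of ligands, was called in pear at 0.19 (adjusted p = 0.00911) and had 0.09 in rapeseed (adjusted p = 0.199). Glypican-4 (LOC108003653), with 44 to 94 counts, was not tested. Of the patched domain-containing proteins, LOC108004327 was called higher in pear at 0.28 (adjusted p = 7.34e-06) and in rapeseed at 0.30 (adjusted p = 3.64e-06). LOC108001697 had -0.081 and -0.13 and was not called after TMM scaling.

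The genes listed as transducers moved in different directions. The kinesin-like protein costa (LOC107993269), the scaffold to which fused binds in *Drosophila*, had log2 fold changes of -0.27 in pear (adjusted p = 0.0502) and -0.40 in rapeseed (adjusted p = 0.00504). By library totals its values were 0.26 (adjusted p = 0.0525) and 0.086 (adjusted p = 0.521), so the direction turned. The suppressor of fused homolog (LOC108002700), which in *Drosophila* binds Cubitus interruptus and holds it back, was not called after TMM scaling. It had 0.21 in pear (adjusted p = 0.0725) and 0.095 in rapeseed (adjusted p = 0.418). By library totals it was called higher, at 0.75 in pear (adjusted p = 1.01e-06) and 0.59 in rapeseed (adjusted p = 2.05e-05).

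The table also holds a pair of zinc finger genes described by the name of the vertebrate GLI factors, the relatives of Cubitus interruptus. They were listed as transducers by that description alone, and their part in the pathway was not tested. Zinc finger protein GLI1-like (LOC107997098) had 1649, 1755 and 1924 counts in pear, 2318, 2131 and 2331 in rapeseed, and 2380, 3479 and 3099 in non-pollen. Its log2 fold change was -0.99 in pear (adjusted p = 3.88e-11) and -0.76 in rapeseed (adjusted p = 2.00e-09), opposite in sign to cubitus interruptus. This was also the 1 gene of the list called lower by library totals in pear, at -0.46. Zinc finger protein GLI3-like (LOC108003818) had -0.098 (adjusted p = 0.574) and -0.048 (adjusted p = 0.787) and was not called after TMM scaling.

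Among the kinases and phosphatases, 8 of 13 tested genes were called higher and 2 lower in pear, and 7 higher and 2 lower in rapeseed. Of all genes, 28.5% were higher and 27.2% lower in pear, and 29.3% higher and 30.0% lower in rapeseed. In *Drosophila*, protein kinase A, casein kinase I and the glycogen synthase kinase Shaggy phosphorylate Cubitus interruptus ahead of its trimming. A protein kinase A catalytic subunit (LOC107997548) had 546, 504 and 547 counts in pear, 599, 490 and 539 in rapeseed, and 213, 254 and 176 in non-pollen, with all pollen-carrier libraries above all non-pollen libraries. Its log2 fold change was 1.04 in pear (adjusted p = 1.19e-05) and 0.95 in rapeseed (adjusted p = 3.29e-05). Glycogen synthase kinase-3 beta (LOC108000569) was higher by 0.48 in pear (adjusted p = 7.15e-07) and 0.32 in rapeseed (adjusted p = 0.000104), and the kinase PRKX (LOC108001215) by 0.25 in pear and 0.19 in rapeseed. The genes described as G protein-coupled receptor kinase 1 were also higher, LOC107992508 by 0.33 in pear and 0.45 in rapeseed and LOC108000044 by 0.18 and 0.27. G protein-coupled receptor kinase 2 (LOC107997984), which in *Drosophila* phosphorylates Smoothened, was chosen after its values were seen and was lower, at -0.74 in pear (adjusted p = 0.000235) and -0.41 in rapeseed (adjusted p = 0.0215). By library totals it was at -0.21 in pear (adjusted p = 0.222) and 0.082 in rapeseed (adjusted p = 0.635), so that both calls were lost and the rapeseed direction turned. Its rapeseed call was also lost without rapeseed replicate 1 (-0.33) or 2 (-0.37) and without non-pollen replicate 2 (-0.35) or 3 (-0.29).

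Of 10 tested ubiquitin ligase and protease genes, 3 were called higher and 2 lower in pear, near the 28.5% and 27.2% of all genes. In rapeseed 5 were called higher and 3 lower, beside 29.3% and 30.0% of all genes. In *Drosophila*, the adaptor Roadkill brings Cubitus interruptus to a Cullin-3 ligase. LOC107998979, some of whose transcripts the table describes as roadkill-like, was higher by log2 fold changes of 0.69 in pear (adjusted p = 4.66e-13) and 0.77 in rapeseed (adjusted p = 5.52e-14). Cullin-3-like (LOC107995934) was higher by 0.11 in pear (adjusted p = 0.0433) and 0.21 in rapeseed (adjusted p = 0.000538). The speckle-type POZ protein (LOC108000731), described by the name of the vertebrate relative of Roadkill, was lower at -0.32 in pear (adjusted p = 4.45e-06) and -0.32 in rapeseed (adjusted p = 4.06e-06). Ubiquitin carboxyl-terminal hydrolase 8 (LOC108000365), which in *Drosophila* removes ubiquitin from Smoothened, was lower at -0.20 (adjusted p = 0.00715) and -0.25 (adjusted p = 0.00127). The last 2 genes had positive log2 fold changes by library totals, of 0.22 and 0.17 for LOC108000731 and 0.33 and 0.24 for LOC108000365.

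The role of *Drosophila* targets was filled by description and held 6 tested genes, 3 of them mothers against decapentaplegic homologs, which are not themselves classic targets. Over the 6, edgeR called 2 higher in pear and 5 in rapeseed, beside 28.5% and 29.3% of all genes. Over the other 3, which were decapentaplegic-like, Wnt-1-like (LOC108001794) and transcription factor collier (LOC108004296), it called 1 higher in pear and 3 in rapeseed. Wnt-1-like and collier were below 1 FPKM in every non-pollen library and passed the filter only through the groups where they were higher. Without the filter edgeR gave them 0.53 (adjusted p = 0.0447) and 0.64 (adjusted p = 0.0446) in rapeseed. The decapentaplegic-like gene (LOC108000002), which encodes a secreted growth factor, was higher by 0.25 in pear (adjusted p = 0.000654) and 0.26 in rapeseed (adjusted p = 0.000366). Among the homologs of mothers against decapentaplegic, homolog 6 (LOC107995656) was higher by 0.24 in pear (adjusted p = 0.00186) and 0.32 in rapeseed (adjusted p = 0.000124). Homolog 3 (LOC108004338) had 0.014 in pear (adjusted p = 0.801) and was called at 0.18 in rapeseed (adjusted p = 0.000924). The engrailed-like gene (LOC107993540) and a Wnt-1 gene (LOC107993076), both classic targets of the pathway, were left out by the filter on FPKM. Without that filter LOC107993540 had 0.51 in pear (adjusted p = 0.29) and 0.88 in rapeseed (adjusted p = 0.0544), and LOC107993076 had -0.14 (adjusted p = 0.861) and 0.23 (adjusted p = 0.737).

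**Figure D4:**
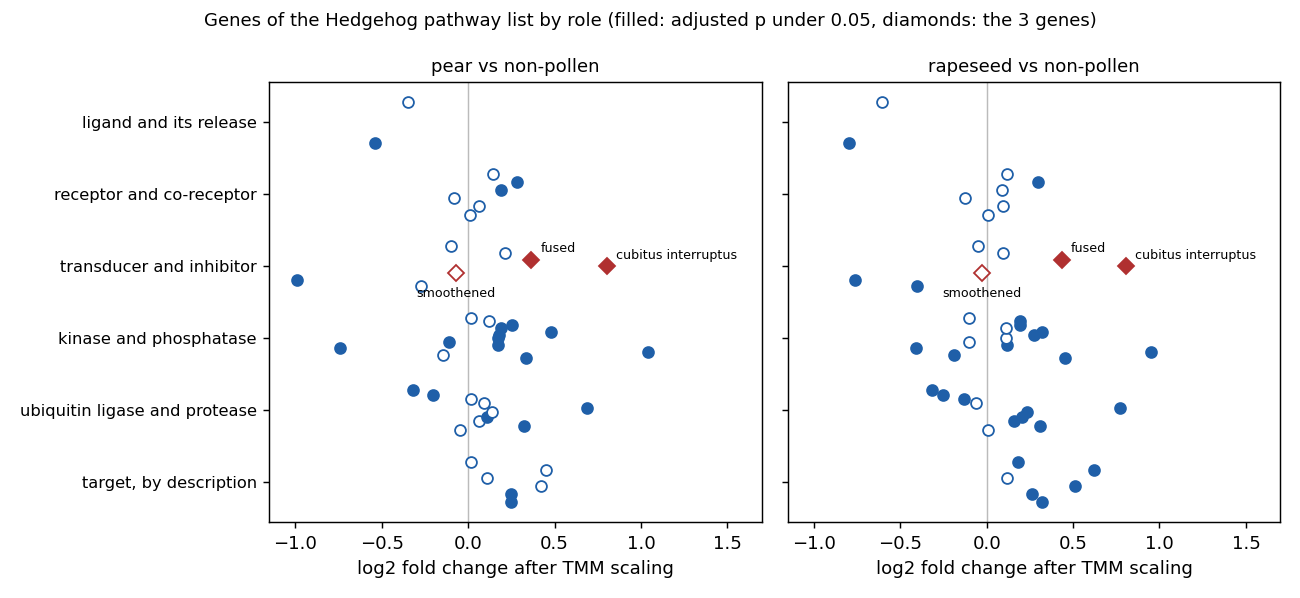
Log2 fold changes after TMM scaling (x axis) of the 44 tested genes of the Hedgehog pathway list, by role (y axis), in pear against non-pollen (left) and rapeseed against non-pollen (right). Each symbol is a gene, filled where adjusted p is under 0.05, with diamonds for smoothened, cubitus interruptus and fused. Roles were given by description. Of the genes so listed as transducers, cubitus interruptus (0.80 in pear) and GLI1-like (-0.99 in pear) stand at opposite ends.

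The genes whose profile over the 9 libraries was most like that of each gene were found by Pearson's r of log2 CPM after TMM scaling, as a description. For smoothened they were a zinc finger protein (LOC107996900, r = 0.93), cytochrome P450 306a1 (LOC108002654, r = 0.90) and beta-1,3-galactosyltransferase 5-like (LOC107992472, r = 0.89). For cubitus interruptus they were the uncharacterized LOC107997997 (r = 0.99), dual oxidase-like (LOC107993848, r = 0.98) and the patched domain-containing protein LOC108004327 (r = 0.98). For fused they were inositol monophosphatase 2-like (LOC107996237, r = 0.99), Homeobox protein cut (LOC107999100, r = 0.97) and a dual serine/threonine and tyrosine protein kinase (LOC108000210, r = 0.97). By library totals alone the r of these 9 genes lay between 0.86 and 0.995, but the median over all genes was then 0.85 for smoothened, 0.88 for cubitus interruptus and 0.88 for fused, against -0.020, -0.042 and -0.057 after TMM scaling. The 9 points share the split into pollen carriers and non-pollen bees and, by library totals, the share of gland transcripts in each library.

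Among the 3 genes themselves, r after TMM scaling was 0.69 between cubitus interruptus and fused, -0.35 between smoothened and cubitus interruptus and -0.28 between smoothened and fused. By library totals these became 0.90, 0.90 and 0.92. The likeness of smoothened to the other 2 genes thus turned with the scaling, and only that of cubitus interruptus to fused kept its sign under both.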

How the data were processed

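For each of 9 libraries the authors deposited raw counts, as whole numbers, and length-scaled FPKM values. Per the labels, poly(A)-selected RNA was made into strand-marked libraries and read in pairs. StringTie 2.1.6, HISAT2 2.2.1, cutadapt 1.9, edgeR and DESeq2 stand in the submitters' processing notes with no step attached. The build, the strand setting of the counting and the handling of multiply matching reads were not given in the sources used here. The paper linked to the series describes other libraries, of heads, and nothing but its style was used.

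Genes with FPKM of at least 1 in at least 3 libraries were tested (9259 of 12757) with edgeR 4.0.16 in R 4.3.3, using the quasi-likelihood test on the deposited counts, TMM scaling, the 3 groups in one fit, and Benjamini-Hochberg adjustment over all genes tested, with a threshold of 0.05. The common biological coefficient of variation was 7.92%. The ratios of the genes were compared with an exact two-sided permutation test. Alternatives used DESeq2 1.42.0, limma 3.58.1, other scalings, pseudocounts of 1 and 0.1 on FPKM or of 1 on TPM (FPKM rescaled to an equal sum per library), other filters, a replicate block and the removal of single libraries. The fit was first run on simulated counts with few changed genes, as many higher as lower. Those counts had no large shift in gland transcripts between groups, so that run says nothing on the choice of scaling here. Replicate libraries differed by more than sampling noise, with a chi-square per degree of freedom between 6.03 and 14.2.

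The 3 genes and the lists were chosen with earlier results of these data known. Besides the 3 genes, those named are every list gene of the ligand, receptor and transducer roles, and for each other role and comparison up to 3 called genes with the smallest adjusted p. For each of the 3 genes, the 3 described genes with the highest r are named too. LOC107997984, LOC107993540, LOC107993076, LOC108001794 and LOC108004296 are named outside this rule, after their values were seen. The Gene Ontology terms of 220 genes, cubitus interruptus among them, were not used here because the column was held only in part. A RefSeq gene table (assembly AcerK_1.0) held all 3 identifiers and was used for names only. No sequence is shown.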

Additional observations from a re-analysis of the deposited data

Results flagged for a closer look

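Of the named genes, 2 differed between the pollen sources in edgeR's quasi-likelihood test with Benjamini-Hochberg adjustment. They were the 2 of 44 tested list genes called higher in rapeseed than in pear, with none lower. Of all genes, 7.94% were called higher and 4.96% lower. LOC108004338 was named partly because it was called in this comparison, so its place here was set by the naming rule. Zinc finger protein GLI1-like (LOC107997098) had FPKM of 10.2 to 10.7 in rapeseed and 8.51 to 9.78 in pear, with a log2 fold change of 0.23 in rapeseed against pear (adjusted p = 0.024, higher in 3 of 3 rapeseed libraries than in any pear library). Mothers against decapentaplegic homolog 3 (LOC108004338) had FPKM of 14.9 to 15.4 in rapeseed and 13.6 to 14.2 in pear, with a log2 fold change of 0.17 (adjusted p = 0.00919), again without overlap. The other named genes, smoothened, cubitus interruptus and fused included, did not pass that test.

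Both calls depended on the setting. For LOC107997098 the log2 fold change by library totals was 0.19 (adjusted p = 0.0521), with FPKM plus 1 it was 0.17 (adjusted p = 0.111), and without pear replicate 1 it was 0.17 (adjusted p = 0.132). For LOC108004338 it was 0.12 by library totals (adjusted p = 0.0562) and 0.11 with FPKM plus 1 (adjusted p = 0.154).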

How the results depend on the processing

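The calls of cubitus interruptus in both comparisons with non-pollen, and that of fused in rapeseed, held under all 22 alternatives run. Of 198 values for the 3 genes, 176 kept direction and side of the threshold. The tally includes fits without a library of the group not compared, which could hardly move the fold change. Smoothened depended on scaling: in pear and rapeseed its log2 fold change was 0.46 and 0.46 by library totals, 0.43 and 0.43 with FPKM plus 1, 0.47 and 0.47 with FPKM plus 0.1, and 0.65 and 0.65 with TPM plus 1, all called higher. With gland genes left out of the totals, chosen after seeing the data, it was -0.20 and -0.20, called lower, and fused in pear was 0.24, not called. The cause was not tested. Uncalled values that changed sign were, for smoothened, 0.051 in rapeseed with quantile normalization and -0.00027 in rapeseed against pear without gland genes in the totals. For cubitus interruptus in rapeseed against pear they were -0.038 by library totals, -0.042 without gland genes, -0.022 with FPKM plus 1, -0.035 with FPKM plus 0.1 and -0.032 with TPM plus 1. Leaving out single libraries, smoothened ranged from -0.051 to 0.0094 in rapeseed against non-pollen and from -0.027 to 0.11 in rapeseed against pear, and cubitus interruptus from -0.048 to 0.056 in rapeseed against pear, none called. The log2 ratio of cubitus interruptus to fused ranged from 0.16 to 0.63.

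Counts of Hedgehog list genes followed the scaling. In pear against non-pollen, 39 of 44 were higher and 1 lower by library totals, FPKM plus 1 and FPKM plus 0.1. Of all genes, these settings called 75.0 to 75.7% higher and 6.57 to 6.70% lower. With TPM plus 1, 40 were higher and 1 lower, beside 84.7% and 4.74% of all genes. Without gland genes in the totals, 8 were higher and 10 lower, beside 18.3% and 40.1% of all genes. With quantile normalization 23 were higher and 3 lower, beside 33.4% and 22.1% of all genes. In rapeseed against non-pollen, 39 were higher and 1 lower by library totals, FPKM plus 1 and FPKM plus 0.1. Of all genes, 70.0 to 70.9% were higher and 7.58 to 7.81% lower. With TPM plus 1, 39 were higher and 0 lower, beside 81.6% and 5.26%. Without gland genes, 8 were higher and 14 lower, beside 17.5% and 48.0%. With quantile normalization 21 were higher and 4 lower, beside 32.9% and 24.0%. Leaving out single libraries gave 5 to 9 lower in this comparison, beside 27.1 to 30.2% of all genes. In rapeseed against pear, edgeR called 2 higher, beside 7.94% of all genes, and DESeq2 called 4, beside 9.59%. With library totals, totals without gland genes, FPKM plus 1, FPKM plus 0.1, TPM plus 1 and quantile normalization 0 were higher. Those settings called 4.96 to 5.93% of all genes higher. The first 5 of them called 5, 6, 2, 1 and 2 lower, beside 8.91, 9.62, 7.05, 6.59 and 7.51% of all genes. With only the compared groups fitted 3 were lower, beside 6.67% of all genes. Leaving out single libraries gave 1 to 3 higher and 0 to 1 lower, beside 5.85 to 8.89% and 2.98 to 5.94% of all genes.

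Of 1650 values for the other named genes, 47 reversed, 45 of them upwards under scalings that moved the median of all genes up. In pear and rapeseed, by library totals, FPKM plus 1, FPKM plus 0.1 and TPM plus 1, LOC108000365 had 0.33, 0.32, 0.34 and 0.54, and 0.24, 0.24, 0.26 and 0.45. In that order the pear values of LOC108000731 were 0.22, 0.22, 0.23 and 0.43, its rapeseed values 0.17, 0.18, 0.19 and 0.38. The pear values of LOC108001697 were 0.45, 0.35, 0.45 and 0.58, its rapeseed values 0.37, 0.28, 0.37 and 0.50, and LOC108003818 had 0.44, 0.28, 0.42 and 0.51, and 0.44, 0.29, 0.43 and 0.51. LOC107993269 had 0.086, 0.077, 0.099 and 0.27 in rapeseed and 0.42 in pear with TPM plus 1. LOC107997984 had 0.082, 0.062, 0.11 and 0.23 in rapeseed and 0.024 in pear with TPM plus 1. LOC107996642 had 0.0015, 0.00050 and 0.15 in pear with FPKM plus 1, FPKM plus 0.1 and TPM plus 1. Without gland genes in the totals, LOC107995934 had -0.013 and LOC108004338 -0.11 in pear.

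Replicate numbers did not pair the libraries. Same-numbered libraries had correlations of their deviations between -0.12 and 0.047, and 1 of 9 libraries correlated best with its own number. With a replicate block the log2 fold changes in pear were -0.073 for smoothened, 0.80 for cubitus interruptus and 0.37 for fused, and the block changed no call of the 3 genes. Depth limits cubitus interruptus most, with 232 to 310 counts in the non-pollen libraries.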

Other observations

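A second list held 67 genes with a Gene Ontology term for smoothened signaling, in a column held only in part, and 56 of them were tested. After TMM scaling, 13 were called higher and 13 lower in pear against non-pollen, near the 28.5% and 27.2% of all genes, with a median log2 fold change of -0.072 against -0.0050 for all genes. In rapeseed against non-pollen, 14 were called higher and 16 lower, near the 29.3% and 30.0% of all genes, with a median of -0.11 against -0.020 for all genes. By library totals alone, 40 were called higher and 1 lower in pear, and 37 higher and 2 lower in rapeseed. Of all genes, 75.0% were then higher and 6.70% lower in pear, and 70.0% higher and 7.81% lower in rapeseed.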
